A study of Homo sapiens with 6 samples.

Results

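The 7SK RNA and the proteins that work with it set how much active P-TEFb a cell has. P-TEFb is the kinase CDK9 with cyclin T1 or cyclin T2, and it phosphorylates RNA polymerase II and the pausing factors so that paused polymerase moves into the gene. 7SK is an abundant nuclear RNA made by RNA polymerase III. MEPCE caps its 5′ end, LARP7 holds its 3′ end, and HEXIM1 or HEXIM2, bound to the 7SK RNA, keeps P-TEFb inactive until the kinase is released. The 8 names followed here are RN7SK, HEXIM1, HEXIM2, LARP7, MEPCE, CDK9, CCNT1 and CCNT2, and every identifier named RN7SK or 7SK was included. This gave 9 of the 60420 gene identifiers used, of which 2 were 7SK identifiers and 7 were protein-coding genes. They were chosen partly on measured values, namely the opposite differences of the 7SK identifiers from DMSO in the input TPM, so the values below are descriptions.

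The cells were HEK293T, an established line of human embryonic kidney origin with SV40 large T antigen, and the assay was ribosome profiling. They had received the vehicle DMSO, a PRMT1 inhibitor or a PRMT4 inhibitor, with neither the compound nor its dose or duration in the labels. PRMT1 and PRMT4, also called CARM1, are arginine methyltransferases. Each of the 3 treatments had 1 input library, read as RNA level, and 1 footprint library made from RNA that ribosomes protect, so there were 6 libraries and no replicates. No difference below has a replicate check, no test was possible, and each one describes these libraries. Values are TPM, a share of transcripts scaled for gene length, so genes can be compared with each other but the sequencing depth is unknown.

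Some facts of the whole series touch the results. Between 30576 and 30860 identifiers were above 0 in the inputs and between 20485 and 21161 in the footprints. KRT18 stood at 31.5 to 58.2 TPM and VIM at 104 to 208 TPM, whereas the developmental kidney and neuronal markers PAX2, LHX1 and NEFM were at most 2.06 TPM, EYA1 at most 3.24 TPM and NEFL at most 7 TPM in any library. KRT8 stood at 3.97 to 8.47 TPM. The blood markers PTPRC and CD3E were at most 0.02 TPM, HBB was listed at 0 in all 6 libraries, and the fibroblast marker COL1A1 stood at 1.97 to 3.82 TPM. Across 8107 protein-coding genes, ratios to DMSO in footprints labelled PRMT1 inhibitor followed those in the input labelled PRMT4 inhibitor (Pearson r = 0.56) more closely than those in the input of the same label (0.36). Footprints labelled PRMT4 inhibitor likewise followed the input labelled PRMT1 inhibitor (0.45) more than that of their own label (0.20). These coefficients describe genes, which are not independent replicates. Libraries are therefore named by their labels.

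The 7SK sequences are shown first because the main result turns on how alike they are. In GENCODE release 29, on the later build GRCh38, ENSG00000283293 is RN7SK at chr6:52995621-52995948 on the plus strand, with 328 bases. ENSG00000202198 lies at chr6:52995620-52995950 on the same strand, with 331 bases. The first 100 and the last 40 bases of each model are given. Capitals mark every GATC, which is GAUC in the RNA. HEXIM proteins are known to recognise a GAUC repeat in the 5′ hairpin of 7SK. The capitals mark the sequence only, and which copies are bound was not tested.
RN7SK (ENSG00000283293), 5′ end: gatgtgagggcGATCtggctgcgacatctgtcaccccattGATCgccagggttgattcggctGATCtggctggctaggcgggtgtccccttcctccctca
7SK (ENSG00000202198), 5′ end: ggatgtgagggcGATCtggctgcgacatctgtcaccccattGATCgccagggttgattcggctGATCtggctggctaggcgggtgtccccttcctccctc
RN7SK (ENSG00000283293), 3′ end: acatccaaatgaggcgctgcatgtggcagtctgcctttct
7SK (ENSG00000202198), 3′ end: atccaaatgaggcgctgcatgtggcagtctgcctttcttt
The longer model contains the whole of the shorter one and adds 1 base at the 5′ end and 2 at the 3′ end. Of the 302 windows of 30 bases in the longer model, 3 are absent from the shorter one, and all 299 windows of the shorter model are in the longer one. A read from within the shared 328 bases therefore does not tell the identifiers apart, and how such reads were divided between them was not tested. GATC, a palindrome and so the same on both strands, occurs 3 times in RN7SK, at bases 12 to 15, 41 to 44 and 63 to 66 counted from its 5′ end. By comparison, 29.1% of the 4120 GENCODE transcripts of 300 to 350 bases hold at least 2 copies of GATC, and the share with at least 3 was not computed.

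Per identifier, 7SK differed from DMSO in opposite directions. In the input of DMSO ENSG00000202198 stood at 53086 TPM, under the PRMT1 inhibitor label at 34544 TPM and under the PRMT4 inhibitor label at 19782 TPM. ENSG00000283293 stood at 15769, 52493 and 81934 TPM in the same order. The share of 7SK assigned to ENSG00000283293 was thus 22.9% in DMSO, 60.3% under the PRMT1 label and 80.6% under the PRMT4 label.

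On the log2 scale with a pseudocount of 1 TPM, ENSG00000283293 had ratios to DMSO of 1.73 and 2.38 under the PRMT1 and PRMT4 labels. ENSG00000202198 had ratios of -0.62 and -1.42. Relative to the median of the 9040 genes with a mean over the 6 libraries of at least 5 TPM, called tested genes, these became 1.89 and 2.74 for the first identifier and -0.46 and -1.06 for the second. Of all tested genes, 0.819% lay at least 2-fold from the median in the PRMT1 input and 2.44% in the PRMT4 input. Since these inputs were used to choose the members, nothing is read from the identifiers' places among them. Both inhibitor inputs were set against the same DMSO input.

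**Figure D1:**
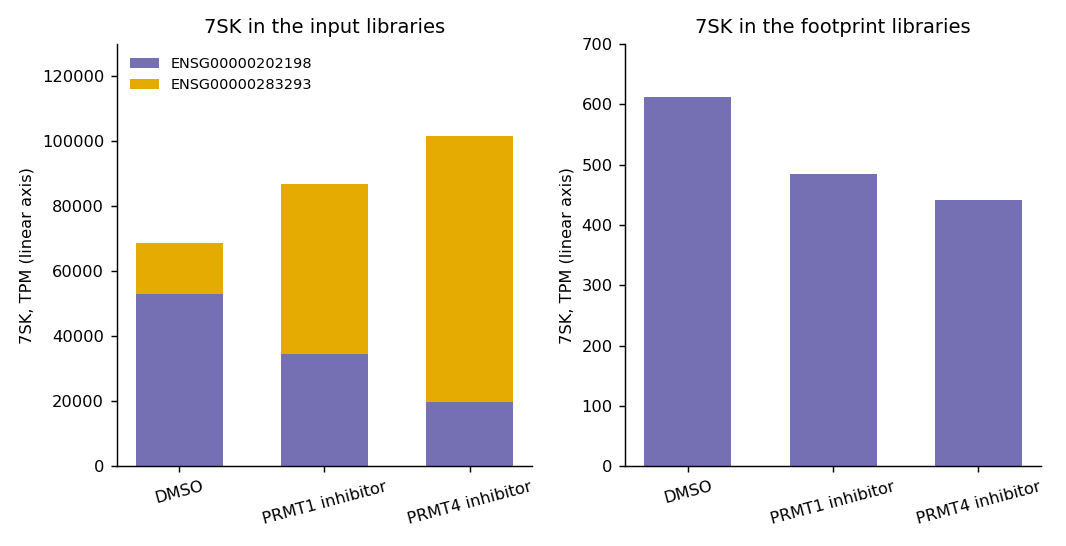
TPM of the 7SK identifiers ENSG00000202198 and ENSG00000283293, stacked, in the 3 input libraries (left) and the 3 footprint libraries (right), on linear axes of different range, with 1 library per bar. In the inputs the sum goes from 68855 TPM in DMSO to 101716 TPM under the PRMT4 label while the larger part passes from one identifier to the other, and in footprints all of 7SK is on ENSG00000202198.

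Summed over both identifiers, 7SK was higher in the input of each inhibitor label, by much less than ENSG00000283293 alone. Input from DMSO held 68855 TPM of 7SK, against 87036 TPM under the PRMT1 label and 101716 TPM under the PRMT4 label. These levels were 1.26 and 1.48 times the DMSO level, against 3.33 and 5.20 times for ENSG00000283293. The log2 ratio of the sum was 0.34 and 0.56 as deposited, and 0.50 and 0.93 relative to the median tested gene. Unlike ENSG00000283293, the sum was below 2-fold on both of these scales. 7SK made up 6.89%, 8.70% and 10.2% of the DMSO, PRMT1-label and PRMT4-label inputs, and in each of them it was the third most abundant RNA listed when both identifiers were counted as 1.

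Other classes of RNA also held different shares of the libraries. Protein-coding genes outside the mitochondrial genome held 45.6%, 38.7% and 33.4% of the same inputs. Per 1000 TPM of these genes there were 151 TPM of 7SK in DMSO, 225 TPM under the PRMT1 label and 304 TPM under the PRMT4 label. On that scale the PRMT4 ratio of the sum was 1.01 on the log2 scale, just past 2-fold, and the PRMT1 ratio was 0.58. The median tested gene was at -0.16 and -0.37 in these inputs, and at -0.13 and -0.32 when 7SK and its copies were taken out of the total. The median thus stayed below 0 without 7SK, and what else contributes to the shift was not tested. How many cells each library came from, and how much RNA per cell, cannot be told apart from these shares.

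Footprint libraries held little 7SK, in the opposite order. The sum stood at 612 TPM in DMSO, 485 TPM under the PRMT1 label and 441 TPM under the PRMT4 label. All of it was on ENSG00000202198, and ENSG00000283293 was listed at 0 in all 3 libraries. Relative to the median tested gene the log2 ratios of the sum were -0.19 and -0.46. 7SK is a non-coding RNA, so no translation efficiency is given for it. The 7SK share of the footprint libraries was 0.0612%, 0.0485% and 0.0441%.

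The genome also carries many 7SK pseudogenes, of which 289 were named in the table. Of these, 202 were above 0 in some library, but only 5 had a mean of at least 5 TPM. Their median identity to RN7SK was 85.4% over the aligned part, and 265 of the 299 windows of 30 bases in RN7SK occur exactly in at least 1 pseudogene. The first 80 bases of the 4 with the highest mean TPM are shown because they show how closely copies resemble the 5′ part of 7SK, with GATC in capitals.
RN7SKP9: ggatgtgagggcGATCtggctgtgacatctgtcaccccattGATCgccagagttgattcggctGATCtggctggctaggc
RN7SKP203: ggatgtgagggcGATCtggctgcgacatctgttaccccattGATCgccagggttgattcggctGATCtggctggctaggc
RN7SKP255: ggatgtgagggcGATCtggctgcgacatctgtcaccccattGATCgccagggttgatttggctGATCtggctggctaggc
RN7SKP94: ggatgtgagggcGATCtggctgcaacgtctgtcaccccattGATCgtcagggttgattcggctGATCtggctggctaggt
In GRCh38 they lie at chr13:99205708-99206006 (plus strand), chr2:76445079-76445410 (minus strand), chr14:89712511-89712823 (plus strand) and chr17:57789449-57789732 (plus strand). Against the first 80 bases of ENSG00000202198 they differ at 2, 1, 1 and 4 bases.

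Summed over all copies, the pseudogenes had the order of the 7SK sum in the inputs, but not every copy did. Their summed level was 220 TPM in DMSO input, 306 TPM under the PRMT1 label and 372 TPM under the PRMT4 label, 1.39 and 1.69 times the DMSO level. Relative to the median tested gene their sum had log2 ratios of 0.63 and 1.12. RN7SKP9 stood at 19.1, 25.8 and 32.1 TPM, and RN7SKP203 at 13.3, 19.0 and 23.3 TPM. RN7SKP255 stood at 12.3, 16.2 and 19.4 TPM, and RN7SKP94 at 8.17, 9.97 and 12.6 TPM. These 4 were lowest in DMSO and highest under the PRMT4 label. RN7SKP173, the fifth copy past the filter, was highest under the PRMT1 label, at 8.64, 11.1 and 9.81 TPM. Of the 74 copies with a mean input of at least 1 TPM, 62 were higher than DMSO under the PRMT1 label and 69 under the PRMT4 label. Their median log2 ratios were 0.33 and 0.49 without centring, where the median tested gene was at -0.16 and -0.37. Tested genes passed a different filter, a mean of at least 5 TPM over the 6 libraries. With that filter at 1 TPM their median was -0.13 and -0.30. The mean for the copies was taken over these same 3 inputs, so a copy near 0 in DMSO could enter through an inhibitor input, as RN7SKP221 did at 0, 0.25 and 2.78 TPM. Nothing is therefore read from these counts. The full order of DMSO, PRMT1 label, PRMT4 label held for 42 of the 74 copies, and the share of all tested genes with it was not computed. In footprints the copies summed to 2.87, 4.07 and 2.11 TPM. Because copies share most of their sequence with 7SK, reads of 1 could be counted for another, and the part this plays was not tested. Adding all copies to the sum left its input ratios at 0.50 and 0.93.

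Other RNA polymerase III transcripts were set beside 7SK from a fixed list of 19, of which 15 were matched and 13 had a mean of at least 5 TPM. Relative to the median tested gene their median log2 ratio was 0.25 under the PRMT1 label and 0.30 under the PRMT4 label, against 0 for all tested genes. Without centring the medians were 0.09 and -0.06. RMRP, the RNA of RNase MRP, stood at 9838, 10030 and 11855 TPM in the same 3 inputs, and the minor spliceosomal RNA RNU6ATAC at 746, 786 and 817 TPM. Both were lowest in DMSO and highest under the PRMT4 label, the order of the 7SK sum. The vault RNA VTRNA1-2 stood at 734, 1301 and 703 TPM. The neuronal-type RNA BCYRN1 was at 197, 179 and 86.8 TPM, lowest under the PRMT4 label. Of the 13 RNAs, RMRP and RNU6ATAC were the only 2 with the order of the 7SK sum, and the share of all tested genes with it was not computed. The abundant Y RNA RNY1 stood at 6175, 7449 and 6225 TPM and RNY4 at 3442, 5479 and 2748 TPM, both highest under the PRMT1 label. Unlike 7SK, RMRP and RNY1 stood higher in footprints than in input. RMRP was at 18764.5, 23680.5 and 21513.3 TPM there and RNY1 at 11879, 14716 and 17281 TPM. VTRNA1-2 was lower than in input, at 81.1, 68.3 and 64.9 TPM. Relative to the median tested gene, the footprint medians of the 13 were 0.48 and 0.21.

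U6 gave another case of values divided among near-identical genes. RNU6-1 stood at 287, 145 and 0 TPM in the 3 inputs and RNU6-8 at 81.9, 207 and 56.8 TPM, while RNU6-2 and RNU6-9 had the same value as each other in every library, 21.6, 0.96 and 121 TPM in the inputs. The 5 listed copies summed to 412, 354 and 298 TPM. At least 2-fold from the median tested gene were 1 higher and 2 lower of the 13 RNAs in the PRMT1 input, and 2 higher and 1 lower in the PRMT4 input, where 0.619% and 0.199%, and 1.98% and 0.465%, of all tested genes lay that far. Every one of these 6 was a U6 copy, and all are uncertain for that reason.

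The protein-coding members are listed in the table as HEXIM1 (ENSG00000186834), HEXIM2 (ENSG00000168517), LARP7 (ENSG00000174720), MEPCE (ENSG00000146834), CDK9 (ENSG00000136807), CCNT1 (ENSG00000129315) and CCNT2 (ENSG00000082258). The inhibitory proteins are described first. HEXIM1, named for its induction by hexamethylene bisacetamide, is the main protein that inhibits CDK9 on 7SK. Its message was at 9.89 TPM in DMSO input, 11.4 TPM under the PRMT1 label and 12.5 TPM under the PRMT4 label. This is the order of the 7SK sum, and no other protein-coding member had it. The share of all tested genes with this order was not computed, so nothing is read from the match. The log2 ratios of HEXIM1 were 0.19 and 0.31 as deposited, and 0.35 and 0.67 relative to the median tested gene. On the latter scale 93.6% and 95.6% of tested genes had lower ratios. In footprints HEXIM1 stood at 14.4, 14.96 and 13.99 TPM, a range of less than 1 TPM, with ratios of 0.20 and -0.03.

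HEXIM2, the close relative that can take the place of HEXIM1, had the lowest message level of the 7 in every input. It stood at 6.67, 7.54 and 5.33 TPM in the inputs and at 9.39, 9.52 and 10.6 TPM in the footprints, in the order DMSO, PRMT1 label, PRMT4 label. Its input ratios relative to the median were 0.31 and 0.09, and the second was -0.28 without centring. HEXIM2 was thus higher than DMSO under the PRMT1 label on both scales, and under the PRMT4 label its direction depended on the scale.

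The proteins that build the 7SK particle were LARP7 and MEPCE. LARP7, which binds the 3′ end of 7SK and protects it from decay, stood at 21.4, 19.95 and 15.1 TPM in the inputs and at 30.1, 24.9 and 27.6 TPM in the footprints. It was highest in DMSO in both kinds of library. Relative to the median its ratios were 0.06 and -0.11 in input and -0.12 and -0.11 in footprints, and without centring -0.10 and -0.48, and -0.26 and -0.12. MEPCE, the methylphosphate capping enzyme, stood at 16.5, 15.9 and 16.8 TPM in the inputs, nearly level. Its footprints stood at 9.96, 8.92 and 11.4 TPM, and the ratios relative to the median were 0.11 and 0.39 in input and 0.00 and 0.19 in footprints. As deposited, 7SK was more abundant under both inhibitor labels while the message of LARP7 was less abundant and that of MEPCE was within 1 TPM of DMSO.

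The kinase and its cyclins make up P-TEFb itself. CDK9 stood at 21.2, 18.6 and 18.7 TPM in the inputs and at 49.5, 34.4 and 38.5 TPM in the footprints. In footprints it was highest in DMSO by more than 10 TPM, and its ratios were -0.37 and -0.35 relative to the median, with only 13.1% and 8.26% of tested genes lower. These were the lowest footprint ratios among the 7 proteins for each label, and they lay below 0 on every scale tried. Both share the single DMSO footprint value, so they are not independent of each other. In input the CDK9 ratios were -0.03 and 0.19 relative to the median and -0.19 and -0.17 without centring.

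CCNT1, cyclin T1, stood at 14.6, 14.7 and 10.7 TPM in the inputs and at 17.5, 15.97 and 20.1 TPM in the footprints. CCNT2, cyclin T2, stood at 13.8, 13.4 and 11.1 TPM in the inputs and at 17.8, 18.4 and 16.3 TPM in the footprints. Both were lowest in the input labelled PRMT4 inhibitor. In footprints labelled PRMT4 inhibitor CCNT1 was at its highest and CCNT2 at its lowest. Relative to the median the input ratios were 0.16 and -0.06 for CCNT1 and 0.12 and 0.08 for CCNT2, and the footprint ratios 0.02 and 0.19, and 0.19 and -0.12.

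**Figure D2:**
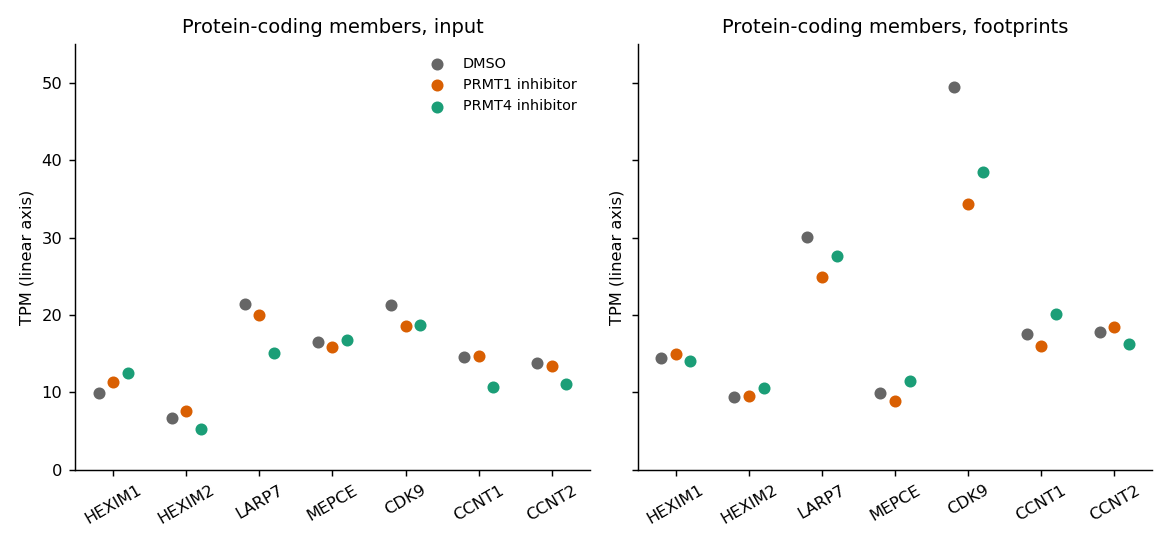
TPM of the 7 protein-coding members in the input (left) and footprint (right) libraries on a linear axis, with 1 point per library coloured by label. CDK9 footprints in DMSO, at 49.5 TPM, stand above all other points, and HEXIM1 input goes from 9.89 to 12.5 TPM.

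As a group, the 7 protein-coding members lay close to the median tested gene, and all 7 had passed the filter of 5 TPM. None was at least 2-fold higher or lower in any comparison with DMSO. The background for that count was 0.819% of tested genes in the PRMT1 input, 2.44% in the PRMT4 input, 3.83% in the PRMT1 footprints and 0.896% in the PRMT4 footprints, so a count of 0 among 7 is near the background. Median ratios were 0.12 and 0.09 in input and 0.02 and -0.03 in footprints, where the median of all tested genes is 0. In input 6 of 7 were above 0 under the PRMT1 label and 5 of 7 under the PRMT4 label, but without centring these counts were 3 and 2, with medians of -0.04 and -0.28. In footprints 5 and 3 of 7 were above 0.

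**Figure D3:**
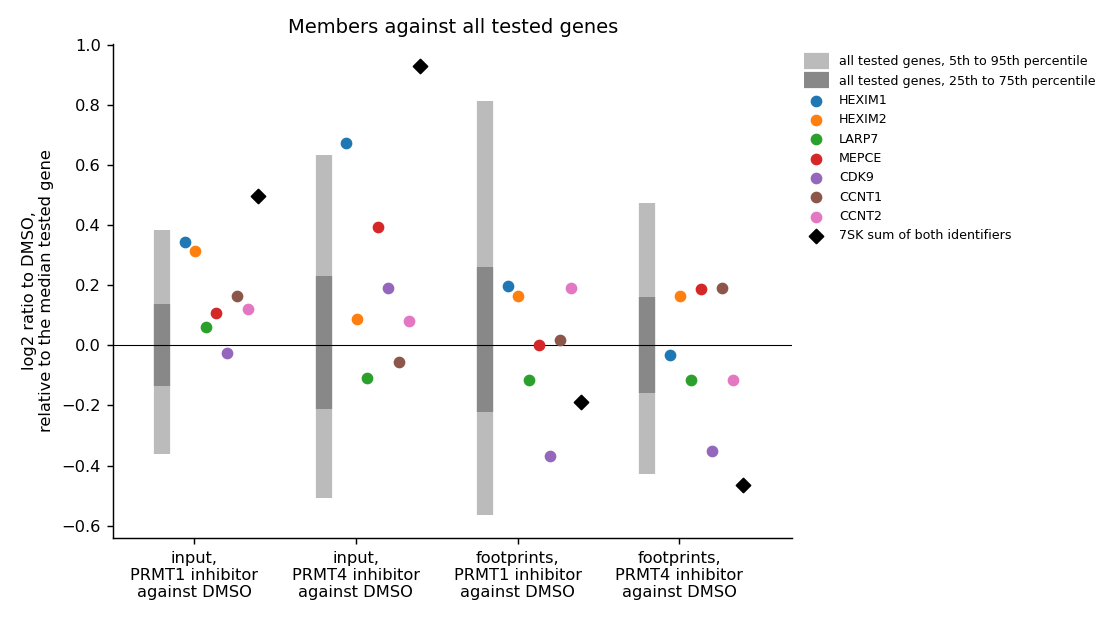
Log2 ratio to DMSO, relative to the median tested gene, of the 7 protein-coding members (circles) and the 7SK sum (diamonds) in the 4 comparisons, beside grey bars for the 5th to 95th and 25th to 75th percentiles of the 9040 tested genes. The 7SK sum lies at 0.50 and 0.93 in input and at -0.19 and -0.46 in footprints, and HEXIM1 at 0.67 is the highest protein-coding member in the PRMT4 input.

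Set directly against each other, the inhibitor inputs differed for 7SK mostly in how it was divided. ENSG00000202198 was 1.75 times as high under the PRMT1 label as under the PRMT4 label, and ENSG00000283293 was 0.641 times as high. The sum was 0.856 times as high, a log2 ratio of -0.22, or -0.41 relative to the median. HEXIM1 (-0.31), MEPCE (-0.27) and CDK9 (-0.20) were lower under the PRMT1 label relative to the median, and HEXIM2 (0.24), CCNT1 (0.24), LARP7 (0.19) and CCNT2 (0.06) were higher. In footprints the 7 ratios lay between -0.18 for MEPCE and 0.31 for CCNT2.

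Translation efficiency was computed by dividing footprint TPM by input TPM within a label. In DMSO, CDK9 had the highest of the 7, with 2.33 TPM of footprints per TPM of input, above 87.2% of 8107 protein-coding genes. MEPCE had the lowest, 0.604, above 23.5%. The other 5 lay between 1.1997 for CCNT1 and 1.46 for HEXIM1. The same genes were at the ends under both inhibitor labels, CDK9 at 1.85 and 2.06 and MEPCE at 0.563 and 0.681.

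Relative to DMSO and to the median tested gene, HEXIM1 had efficiency ratios of -0.15 and -0.72 under the PRMT1 and PRMT4 labels, and CDK9 had -0.34 and -0.55. Since footprints followed the input of the other label more closely, the ratios were also taken with the inputs crossed. HEXIM1 was then at -0.49 and -0.39 and CDK9 at -0.58 and -0.33, so both genes stayed below 0 in either pairing. All these ratios share the same DMSO libraries and are not independent. The other 5 lay between -0.22 and 0.24 with their own inputs, and with crossed inputs between -0.41, for MEPCE under the PRMT1 label, and 0.09. HEXIM2 changed sign under both labels, CCNT1 under the PRMT1 label and MEPCE under the PRMT4 label. Without centring the PRMT4 median of the 7 was 0.16 in place of -0.21, so its direction depended on the scale. None of the 7 was past 2-fold, as against 4.12% and 2.94% of all tested genes.

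Genes with the input pattern nearest to 7SK were found among 9247 with a mean input of at least 5 TPM, by Euclidean distance over the 2 uncentred log2 ratios to DMSO. The measure rests on 3 libraries and shares the DMSO input, so near values are common. For the 7SK sum the nearest were PDIA6, a disulfide isomerase of the endoplasmic reticulum (0.35 and 0.57), TRAM1, a translocation factor (0.33 and 0.53), and the small nucleolar RNAs SNORA9B (0.30 and 0.58) and SNORA8 (0.30 and 0.53). All 4 lay within a distance of 0.052 on the log2 scale. For ENSG00000202198 they were the junction protein AMOT, the glycolytic enzymes PGK1 and LDHA, and the mitochondrial transfer RNA MT-TL2, at distances of 0.11 to 0.15. Differences of these inputs from DMSO were used to choose the identifiers, so nothing is read from how near their neighbours lie. For ENSG00000283293 the distances were larger. Its closest was the histone pseudogene HIST2H2BB (1.85 and 2.59, distance 0.24), followed by RPL7P9, ENSG00000219928 and RNU2-36P at 0.80 to 0.95, of which the first 2 are annotated as processed pseudogenes and the last as an snRNA.

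Other genes were described from 9 fixed lists with 97 different genes, of which 88 had a mean of at least 5 TPM. The lists hold elongation factors, RNA polymerase II genes, RNA polymerase III genes with the snRNA activating complex, and early genes released from pausing. Values over all 88 are therefore not values of the elongation machinery alone. None of the 88 was at least 2-fold higher or lower in either input or in the PRMT1 footprints. Of all tested genes, 0.819% and 2.44% lay that far in the PRMT1 and PRMT4 inputs, and 3.83% in the PRMT1 footprints. In the PRMT4 footprints 1 of the 88 was lower, the heat shock gene HSPA1B (923 against 402 TPM, -1.19). HSPA1B shares sequence with its copy HSPA1A. In those footprints 0.254% of all tested genes were that much lower. The median over the 88 was -0.04 and -0.12 in input and -0.16 and -0.01 in footprints, and 51 and 57, and 62 and 46, were below 0. Without centring 5 were past 2-fold in the PRMT4 input, namely CDC73, MYC, POLR3G, SYNCRIP and SSB, all of them lower. On that scale the median tested gene was at -0.37, and 0.841% of all tested genes were that much higher and 2.26% that much lower.

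Proteins that bind 7SK or free P-TEFb from it lay lower than the median gene in most cases. Of 14, 10 were below 0 in the PRMT1 input (median -0.09), 12 in the PRMT4 input (-0.30), 12 in the PRMT1 footprints (-0.38) and 9 in the PRMT4 footprints (-0.09). Centring sets the median of all tested genes to 0. Low values were not particular to this list. In the same order of labels, RNA polymerase II subunits were below 0 in 10 and 11 of 12 in input, and in 11 and 4 in footprints. In the PRMT4 input the lowest were SYNCRIP, an hnRNP protein found on P-TEFb-free 7SK, at 52.5 against 25.4 TPM (-0.66), and SSB, the La protein that binds new RNA polymerase III transcripts, at 55.5 against 26.8 TPM (-0.66). In the PRMT1 footprints the lowest were the helicase DDX21 at 37.1 against 19.7 TPM (-0.73) and the splicing factor SRSF2 at 779 against 464 TPM (-0.60), and the highest RBM7 (0.13) and HNRNPA1 (0.10). PPM1G and SRSF2 were lowest in the PRMT1 input (-0.31 and -0.29), with RBM7 (0.21) and SSB (0.18) highest. In the PRMT4 footprints JMJD6 and PPM1G were lowest (-0.43 and -0.41) and RBM7 and SART3 highest (0.37 and 0.26).

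Complexes that act with P-TEFb were described in the same way. The super elongation complex, which carries active P-TEFb, had 9 of 10 genes past the filter and medians of 0.00 and -0.10 in input and -0.07 and -0.05 in footprints. Its scaffold AFF4 was at 0.06 in the PRMT1 input and 0.29 in the PRMT1 footprints, and MLLT3 (-0.51) and ELL2 (-0.43) were lowest in the PRMT4 input. The pausing factors DSIF and NELF, which P-TEFb phosphorylates, had medians of -0.02 and 0.13 in input and -0.14 and 0.13 in footprints, with SUPT5H at 0.43 in the PRMT4 input and NELFB at -0.48 in the PRMT1 footprints. The PAF1 complex and SPT6 had medians of -0.01 and -0.20 in input and -0.32 and -0.05 in footprints, with 6 of 8 below 0 in the PRMT4 input and in both footprint comparisons. Its member CDC73 was at 11.95 TPM in DMSO input, 9.48 under the PRMT1 label and 4.44 under the PRMT4 label (-0.89), the lowest of all 88 in any input. SUPT6H was highest of that list in the PRMT4 input (0.32) and in the PRMT1 footprints (0.60), from 2.94 to 4.41 TPM.

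**Figure D4:**
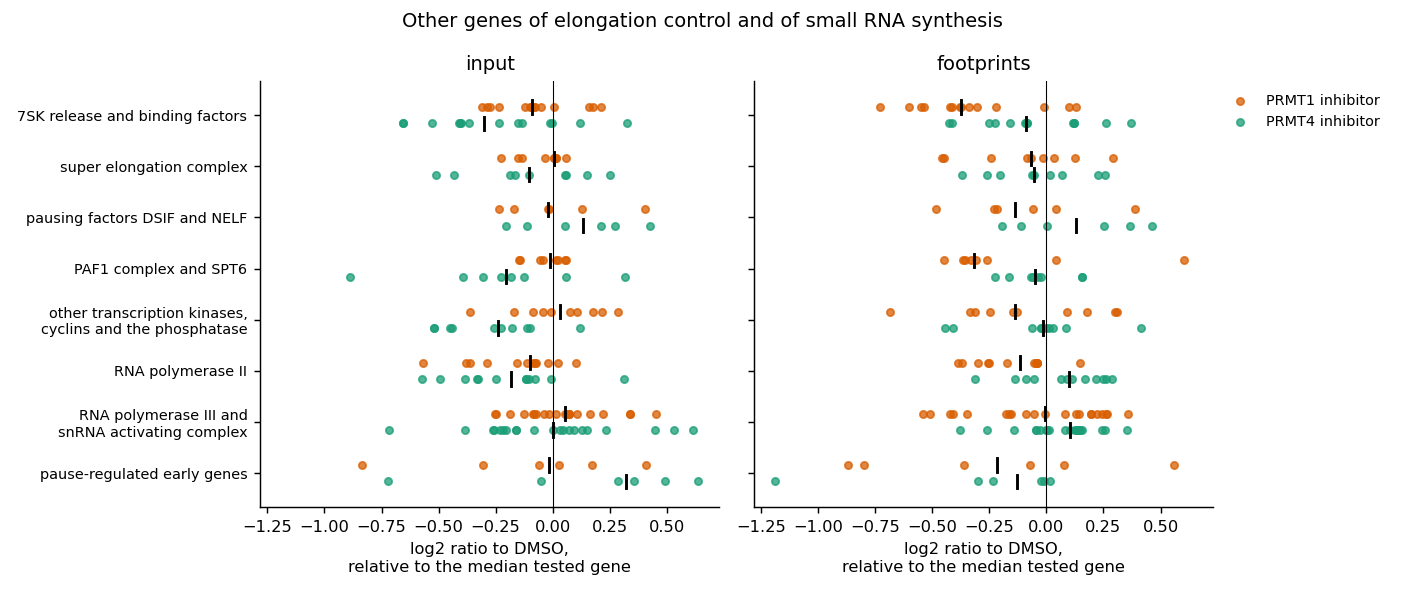
Log2 ratio to DMSO, relative to the median tested gene, for the genes of 8 fixed lists with a mean of at least 5 TPM, in input (left) and footprints (right), with 1 point per gene coloured by label and black ticks for list medians. The binding and release factors of 7SK have medians of -0.30 in the PRMT4 input and -0.38 in the PRMT1 footprints.

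Other transcription kinases had medians of 0.03 and -0.24 in input and -0.14 and -0.01 in footprints, with 9 of 10 below 0 in the PRMT4 input. CDK8 and CCNH were lowest there (-0.52 and -0.52), and the phosphatase SSU72 was lowest in both footprint comparisons (-0.69 and -0.44). RNA polymerase II subunits were below 0 in 10 and 11 of 12 in input (medians -0.10 and -0.18), with POLR2L at -0.57 in the PRMT1 input and POLR2K at -0.57 in the PRMT4 input, and had footprint medians of -0.11 and 0.10.

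The list of RNA polymerase III and snRNA activating complex genes had medians near that of all tested genes. Subunits, initiation factors, the snRNA activating complex and other factors such as MAF1 made up 23 genes, of which 21 passed the filter. Input medians were 0.06 and 0.00, or -0.10 and -0.36 without centring, with footprint medians of -0.01 and 0.10. In the PRMT4 input the highest were the initiation factors BRF2, at 10.9 against 13.2 TPM (0.61), which serves genes with the promoter type of 7SK, and BRF1, at 14.98 against 16.9 TPM (0.53). The lowest were POLR3G, at 9.09 against 3.76 TPM (-0.72), and POLR3K (-0.39). BDP1 (0.45) and SNAPC5 (0.34) were highest in the PRMT1 input, MAF1 and POLR3E lowest (-0.25 and -0.25).

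Early genes whose release from pausing depends on P-TEFb were few, with 6 of 10 past the filter. FOS, FOSB and EGR1 were under 3 TPM in every library. MYC stood at 171, 124 and 80.1 TPM in the 3 inputs (-0.30 and -0.72) and at 456, 225 and 386 TPM in the footprints (-0.87 and -0.23). ATF3 was higher in both inputs (0.41 and 0.64) and in the PRMT1 footprints (0.56), with levels from 8.83 to 18.2 TPM. HSPA1B, uncertain for its shared sequence, was at -0.84 in the PRMT1 input and 0.49 in the PRMT4 input.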

How the data were processed

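The authors deposited TPM per gene identifier, 1 column for each of the 6 libraries, with 2 decimals. Per the submitters' processing notes the build was GRCh37.p13 and the tools were RSEM 1.2.22, STAR 2.4.2a, Bowtie 1.1.2 and cutadapt 1.18, with no role stated. The sources used here do not say how reads of overlapping gene models were divided. TPM keeps no depth, so no counting interval was possible. Of 60461 identifiers, 41 copies of the Y pseudoautosomal region, all at 0, were dropped. Symbols were matched for 55725 and GENCODE 29 gene types for 56157. GENCODE 29 is on GRCh38, so its positions and sequences describe the gene models and were not joined to positions in the file.

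Ratios are log2((TPM + 1) / (TPM + 1)), centred on the median of the 9040 genes with a mean of at least 5 TPM. This pseudocount understates changes of low genes. With 1 library per group no test was run, and 2-fold was used as a descriptive size. The members and lists were chosen with earlier results of these data known. Named were all members, from each list the 2 highest and 2 lowest genes or fewer, the 4 genes nearest to 7SK and the 4 most abundant 7SK pseudogenes. Some items that this rule names are not reported here. Genes named beyond these, such as those under 3 TPM, were chosen after their values were seen. Identity to RN7SK came from local alignment (match 2, mismatch -3, gap opening -5, extension -2). The ratio code was tested on simulated data. Python 3.11.15, numpy 2.4.6, pandas 2.3.3, biopython 1.88 and matplotlib 3.10.9 were used.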

Additional observations from a re-analysis of the deposited data

How the results depend on the processing

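No library could be left out, since every group has 1. No paired analysis was possible because each group holds 1 library and no test was made. Across 9 alternatives, 443 of 498 values of single members kept direction and side of 2-fold and moved by at most 1.5 times, and 54 changed sign, all from values under 2-fold. ENSG00000202198 in the PRMT4 input came to -0.98 after rescaling over protein-coding genes. The 7SK sum was above 0 in both inputs under every alternative, at 0.34 to 0.58 and 0.56 to 1.01, the last after rescaling over protein-coding genes and past 2-fold.

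Medians of the 7 protein-coding members changed direction in these cases. Without centring, with no filter, and rescaled without 7SK they were -0.038, -0.024 and -0.011 in the PRMT1 input, -0.28, -0.25 and -0.24 in the PRMT4 input, -0.13, -0.13 and -0.13 in the PRMT1 footprints, and 0.16, 0.13 and 0.12 in PRMT4 translation efficiency. At a mean TPM of at least 1 the PRMT1 footprint median was -0.046, and rescaled over protein-coding genes the PRMT4 footprint median was 0.030. Medians over the fixed lists of elongation, RNA polymerase and early genes changed direction after rescaling over protein-coding genes. They came to 0.031 in the PRMT1 input and 0.056 in the PRMT4 footprints.

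Counts of genes past 2-fold in these fixed lists were 0 in the PRMT1 footprints but 1 without centring, 1 rescaled without 7SK and 2 with no filter. In the PRMT4 input they were 0, but 5, 3 and 3 under those settings, 1 at a mean of at least 1 TPM and 1 with a pseudocount of 0.1. For translation efficiency, crossed inputs gave 1 in place of 0 under the PRMT1 label and 0 in place of 1 under the PRMT4 label, where 4, 4 and 4 came without centring, with no filter and rescaled without 7SK, and 2 at a mean of at least 1 TPM.

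Counts over all tested genes moved most with the filter and the pseudocount. At a mean of at least 1 TPM, with no filter and with a pseudocount of 5 they were 120, 166 and 42 in the PRMT1 input (74 as reported), 335, 424 and 113 in the PRMT4 input (221), 552, 644 and 193 in the PRMT1 footprints (346), 178, 250 and 38 in the PRMT4 footprints (81), 657, 903 and 202 for PRMT1 translation efficiency (372) and 508, 791 and 136 for that of PRMT4 (266). A pseudocount of 0.1 gave 119 in the PRMT1 input and 141 in the PRMT4 footprints, and PRMT4 translation efficiency had 424 without centring and 137 with crossed inputs. Of the tested genes past 2-fold, those higher made up 81.0% in the PRMT4 input and 27.1% without centring, 75.7% and 65.1% in the PRMT1 input, 85.0% and 70.1% in the PRMT1 footprints, and 27.4% and 79.2% for PRMT4 translation efficiency. The cause of these differences was not tested.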
